A study of Mus musculus with 10 samples.

Results

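Transcripts of 10 genes that are switched on by ERK signalling were followed in mouse neurons given an inhibitor of JNK, a related MAP kinase. Some of the 10 encode inhibitors that feed back on ERK signalling. The genes were the Sprouty genes Spry1, Spry2 and Spry4, the Sprouty-related genes Spred1 and Spred2, the ETS factor genes Etv1, Etv4 and Etv5, and Phlda1 and Ier3. They were chosen by name, all 10 were on the array, and each was read from its brightest probe set with a single gene symbol, among 19938 genes so measured. The cells were terminally differentiated neurons of 129Sv-C57Bl/6 background. One group (n = 5 arrays) received 25 µM SP600125, a small molecule that blocks the JNK kinases, 3 times with 2 hours between additions, and the other (n = 5) received the solvent DMSO on the same schedule. In each group 2 arrays (replicates a and b) belong to batch 1 of the drug and 3 (c, d and e) to batch 2. The labels call the replicates biological but do not name separate cultures, so p-values measure only how far these samples spread, and that spread may be technical. They name neither the source of the neurons nor the time from the last addition to harvest.

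When a growth factor binds a receptor tyrosine kinase, adaptors load RAS with GTP, and RAF, MEK and ERK are phosphorylated in turn. ERK then induces a set of genes that includes its own inhibitors. Sprouty proteins act between receptor and RAF, Spred proteins bring the RAS GTPase-activating protein neurofibromin to the membrane, and ETV1, ETV4 and ETV5, the PEA3 group of ETS factors, carry the transcriptional output. In the nervous system these genes are best known as read-outs of FGF signalling.

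The members did not move together. After SP600125, Spry2 rose 1.34-fold (95% interval 1.20 to 1.49), Spry1 1.24-fold (1.10 to 1.40) and Etv1 1.17-fold (1.06 to 1.29). Spred2 fell to 0.629 of its DMSO level (95% interval 0.563 to 0.702) and Etv4 to 0.749 (0.666 to 0.843). Spry4, Spred1, Etv5, Phlda1 and Ier3 did not pass the test. Within the PEA3 group, Etv1 rose and Etv4 fell, but Etv1 did not pass after median centring of the arrays (0.12 on the log2 scale, limma adjusted p = 0.152). With limma and drug batch as a term, 5 of the 10 members passed a Benjamini-Hochberg adjusted p of 0.05, against 46.9% of all genes tested, so this count is near the background. By direction, 3 members rose (17.0% of all genes did) and 2 fell (29.9%). The median change was 0.02 over the members and −0.03 over all genes, in log2 units, as are all changes below, always SP600125 minus DMSO. In bulk RNA such as this, fewer cells of a type and less RNA per cell cannot be told apart.

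The stretches of 250 bases before the transcription start are shown for the members that changed and have an entry in the RefSeq promoter table (GRCm38.p6), because ETS factors and capicua, the repressor of the PEA3 genes that ERK inactivates, act on such DNA. Etv1 has more than 1 start site there and the first is given. Capitals mark GGAAG, the form of the ETS core that was searched, and the capicua octamers TGAATGAA or TCAATGAA, on either strand.

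Spry1 (chr3:37639697-37639946, plus strand): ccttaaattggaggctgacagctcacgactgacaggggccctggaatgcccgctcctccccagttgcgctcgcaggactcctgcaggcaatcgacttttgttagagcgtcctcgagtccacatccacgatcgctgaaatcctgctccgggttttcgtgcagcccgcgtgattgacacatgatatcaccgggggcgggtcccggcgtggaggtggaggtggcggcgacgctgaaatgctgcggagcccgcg
Spry2 (chr14:105896820-105897069, minus strand): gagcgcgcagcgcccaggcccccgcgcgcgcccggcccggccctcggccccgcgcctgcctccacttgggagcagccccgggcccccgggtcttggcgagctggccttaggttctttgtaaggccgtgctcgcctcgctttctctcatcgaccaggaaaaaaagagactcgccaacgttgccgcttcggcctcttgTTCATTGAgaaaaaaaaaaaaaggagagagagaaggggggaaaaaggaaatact
Spred2 (chr11:19924192-19924441, plus strand): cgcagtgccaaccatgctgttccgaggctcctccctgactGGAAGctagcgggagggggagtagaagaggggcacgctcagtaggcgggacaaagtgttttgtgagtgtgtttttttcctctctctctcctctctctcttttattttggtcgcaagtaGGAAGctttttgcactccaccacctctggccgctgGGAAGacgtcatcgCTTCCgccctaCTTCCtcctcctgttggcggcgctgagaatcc
Etv1 (chr12:38779832-38780081, plus strand): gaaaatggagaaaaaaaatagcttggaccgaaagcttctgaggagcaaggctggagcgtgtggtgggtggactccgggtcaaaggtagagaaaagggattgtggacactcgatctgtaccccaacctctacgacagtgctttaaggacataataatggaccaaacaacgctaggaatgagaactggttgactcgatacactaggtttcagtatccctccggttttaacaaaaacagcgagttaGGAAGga

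The ETS core in this form was found 5 times in the Spred2 window and 1 time in the Etv1 window, where its first base lies 7 bases before the start. GGAAG was not found in the windows of Spry1 and Spry2, though both hold the shorter GGAA, which was not searched. GGAAG is short and common, with at least 1 copy in 64.1% of the 32851 RefSeq promoter windows of this length. It was in 5 of the 9 windows of members. Among these were windows of Spred1, Etv5 and Ier3, which did not pass the test, while the second Etv1 window had no copy. The Spry2 window held a capicua octamer whose first base lies 54 bases before the start, and 1.70% of all windows held one. Over the 7 members in the table (9 windows), the AP-1 site TGANTCA, bound by the JUN and FOS factors downstream of JNK, had no match (6.75% of all windows have one), nor had the cAMP response element TGACGTCA (1.55%). The TATA sequence TATAAA was in 1 of the 9 windows (12.4% of all) and CCAAT in 4 (33.8%). These motifs overlap in none of the windows shown. A match is a run of letters and not a shown binding site.

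Markers of several cell types were present, and Sprouty and PEA3 genes are known from glia and fibroblasts as well as neurons. The 12 neuronal markers had a mean log2 level of 8.79 to 9.16 on DMSO arrays and 8.40 to 9.01 on SP600125 arrays, and 11 of them fell. Among their defining genes, Tubb3 stood at 9.87, Map2 at 10.47 and Rbfox3 at 7.85 after DMSO, so the labelled cell type was seen in its markers. Genes of other cells were also well expressed after DMSO, such as the astrocyte transporter gene Slc1a3 (10.01), the collagen gene Col1a1 (10.87) and the progenitor factor gene Sox2 (9.42). No marker lay at 0, but neither did any other deposited value, so this cannot tell expressed markers from silent ones. Of 10 astrocyte markers (8.54 to 8.61 after DMSO, 8.42 to 8.53 after SP600125), 2 rose and 5 fell. Of 9 oligodendrocyte lineage markers (7.06 to 7.13 and 6.86 to 7.00), 5 fell. Of 10 fibroblast and endothelial markers (8.02 to 8.14 and 7.84 to 7.90), 1 rose (Cldn5) and 4 fell (Col1a1, Col1a2, Col3a1 and Kdr). The endothelial genes in that list were dim after DMSO (Pecam1 4.82, Cldn5 5.29, Kdr 5.72 and Cdh5 5.94). Of 9 neural progenitor markers (8.17 to 8.25 and 7.95 to 8.08), 3 fell. Microglial markers were dim (4.59 to 4.74 and 4.74 to 4.91), and 3 of 8 rose, but only 1 after cyclic loess, quantile normalization or median centring; pluripotency markers were dim as well (4.93 to 5.21 and 5.26 to 5.43), and 3 of 7 rose. After cyclic loess 8 neuronal markers fell, and the astrocyte list had 3 rises and 3 falls. The part of these markers in the members' changes was not tested. Arrays correlated at 0.991 to 0.997 across genes within a group and at 0.982 to 0.993 between groups, and no 2 were duplicates, since the closest pair differed by a mean of 0.113. Precision here is set by having 5 arrays in each group.

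Sprouty genes are described first, as inhibitors that sit highest in the pathway. Spry2, which restrains FGF receptor signalling, gave log2 values of 8.50, 8.80, 8.68, 8.67 and 8.55 on DMSO arrays a to e and of 8.91, 9.01, 9.23, 9.04 and 9.12 on SP600125 arrays a to e. Every SP600125 array lay above every DMSO array. The change was 0.42 (SE 0.07, 95% interval 0.26 to 0.58, limma adjusted p = 0.000755). Spry1, a paralogue with the same cysteine-rich domain, stood at 7.06, 6.88, 7.08, 7.04 and 6.93 after DMSO and at 7.26, 7.62, 7.27, 7.24 and 7.16 after SP600125. The groups again did not overlap, and SP600125 replicate b was the highest of all. Spry1 rose by 0.31 (SE 0.08, 95% interval 0.14 to 0.49, limma adjusted p = 0.00713), and by 0.23 when that array was left out.

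Spry4, the third Sprouty gene among the members, had values of 7.20, 7.00, 7.22, 7.22 and 7.37 after DMSO and of 7.10, 7.33, 7.28, 7.27 and 7.14 after SP600125. The groups overlapped throughout, and the difference was 0.02 (95% interval −0.13 to 0.17, limma adjusted p = 0.813). Spry3, a family member outside the 10, was dim (4.74 after DMSO) and fell by 0.29 (SE 0.10).

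The Spred genes encode relatives of Sprouty with an EVH1 domain. Spred2 changed most among the members. Its values were 8.72, 8.42, 8.60, 8.38 and 8.41 on DMSO arrays and 7.76, 7.97, 7.81, 7.83 and 7.82 on SP600125 arrays, with a gap between the groups that exceeds the range within either. It fell by 0.67 (SE 0.07, 95% interval −0.83 to −0.51, limma adjusted p = 6.90e-05). A second, dimmer Spred2 probe set also lay lower, at −0.46 (95% interval −0.63 to −0.29).

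Spred1, which like Spred2 binds neurofibromin, was measured at 8.76, 8.75, 8.84, 8.66 and 8.76 after DMSO and at 8.61, 8.65, 8.77, 8.52 and 8.60 after SP600125. The groups overlapped through SP600125 replicate c, which lay within the DMSO range. The difference was −0.13 (95% interval −0.26 to 0.01, limma adjusted p = 0.120), and its interval does not reach that of Spred2; the difference between these 2 genes was not tested. Spred3, the remaining Spred gene, fell by 0.33 (SE 0.07).

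**Figure D1:**
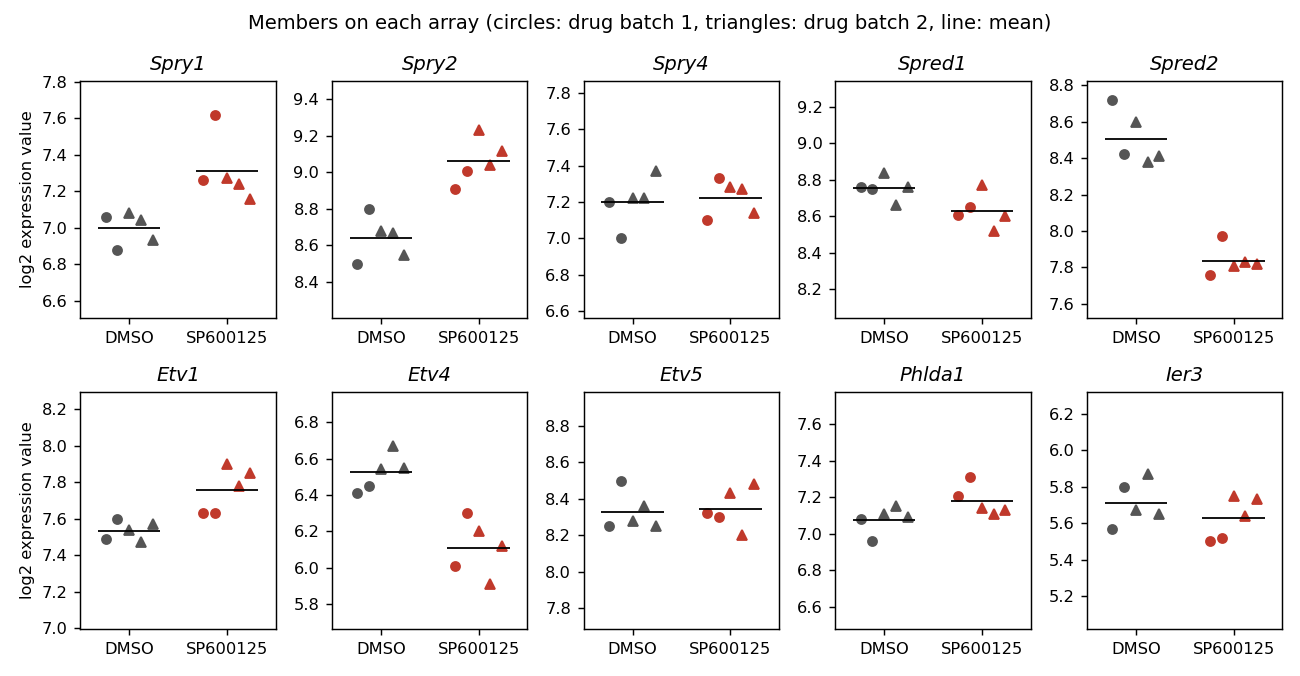
Log2 expression value of each member on each of the 10 arrays, with DMSO in grey and SP600125 in red, circles for drug batch 1, triangles for drug batch 2 and a line at the group mean (n = 5). The groups are fully separated for Spry1, Spry2, Spred2, Etv1 and Etv4 and overlap for the other 5 genes; every panel spans the same log2 range around its own mean.

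Among the PEA3 factors, Etv4 fell and Etv1 rose. Etv4 stood at 6.41, 6.45, 6.54, 6.67 and 6.55 after DMSO and at 6.01, 6.30, 6.20, 5.91 and 6.12 after SP600125. All SP600125 arrays lay below all DMSO arrays. The change was −0.42 (SE 0.08, 95% interval −0.59 to −0.25, limma adjusted p = 0.00120). Etv1, known in the brain from layer 5 cortical and cerebellar granule neurons, was at 7.49, 7.60, 7.54, 7.47 and 7.57 after DMSO and at 7.63, 7.63, 7.90, 7.78 and 7.85 after SP600125. The groups did not overlap, but the batch 1 arrays a and b of SP600125 exceeded the highest DMSO array only slightly. Etv1 rose by 0.22 (SE 0.06, 95% interval 0.09 to 0.36, limma adjusted p = 0.0117), and its second probe set lay at 0.19 with an interval from −0.01 to 0.39. Besides median centring, Etv1 did not pass in drug batch 1 alone (0.08, limma adjusted p = 0.525).

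Etv5 is the PEA3 factor best known from glia and progenitors. Its values were 8.25, 8.50, 8.28, 8.36 and 8.25 after DMSO and 8.32, 8.30, 8.43, 8.20 and 8.48 after SP600125, fully intermixed. The difference was 0.02 (95% interval −0.14 to 0.17, limma adjusted p = 0.863), and a second probe set gave −0.05 (95% interval −0.17 to 0.08).

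Phlda1, a pleckstrin-homology protein induced by growth factors, had values of 7.08, 6.96, 7.11, 7.15 and 7.09 after DMSO and of 7.21, 7.31, 7.14, 7.11 and 7.13 after SP600125. Only the 2 batch 1 arrays of SP600125 exceeded all DMSO arrays, and the difference was 0.10 (95% interval −0.03 to 0.24, limma adjusted p = 0.194). Ier3, an early-response gene linked to cell survival and the dimmest member, had values of 5.57, 5.80, 5.67, 5.87 and 5.65 after DMSO and of 5.50, 5.52, 5.75, 5.64 and 5.73 after SP600125. The groups overlapped, with SP600125 replicates a and b below all DMSO arrays. Its difference was −0.08 (95% interval −0.23 to 0.07, limma adjusted p = 0.337).

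All SP600125 arrays lay above all DMSO arrays for 3 members, as they did for 6.65% of all genes, and below them for 2, as for 16.4% of all genes. Changes on these arrays varied with signal level, and the spread of gene values was narrower after SP600125 (SD 1.63 to 1.71 per array) than after DMSO (1.76 to 1.84). The 500 genes nearest to each member in mean level are therefore given beside it. Genes of the level of Spry2 had a median change of −0.24, and 2.20% of them rose. Those of the level of Spry1 had a median of −0.21 (3.20% rose) and those of the level of Etv1 of −0.23 (3.40% rose). Around Spred2 the median was −0.23 and 65.4% fell, and around Etv4 it was −0.13 and 35.8% fell. For Spry4 (−0.22), Spred1 (−0.24), Etv5 (−0.25) and Phlda1 (−0.20), the median of genes of like level was also lower than the member's own change, and for Ier3 (0.07) it was higher. In all, 7 members lay above and 3 (Spred2, Etv4 and Ier3) below the median of genes of their level.

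Scaling between the arrays changed which members were called. After cyclic loess, which fits out differences between arrays that vary with level, 5 members rose (9.44% of all genes did) and 2 fell (17.7%). The rises were then 0.58 for Spry2, 0.47 for Spry1, 0.41 for Etv1, 0.25 for Phlda1 (limma adjusted p = 0.00455) and 0.18 for Spry4 (limma adjusted p = 0.0414), and the falls −0.48 for Spred2 and −0.37 for Etv4. After quantile normalization 4 rose (7.51%) and 2 fell (22.5%), with Phlda1 at 0.21 (limma adjusted p = 0.0138). After median centring, in which the median over all probe sets was set equal on every array and which moved the median change of all genes to −0.13, 2 rose (7.52%) and 4 fell (43.1%). Etv1 no longer passed there (0.12, limma adjusted p = 0.152), and Spred1 (−0.23) and Ier3 (−0.18) fell. Spry1, Spry2, Spred2 and Etv4 passed with 1 sign under all of these scalings. Spry4, Spred1 and Etv5 took both signs. Over all genes, rises made up 36.2% of the calls as deposited, 34.7% after cyclic loess, 25.0% after quantile normalization and 14.8% after median centring.

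**Figure D2:**
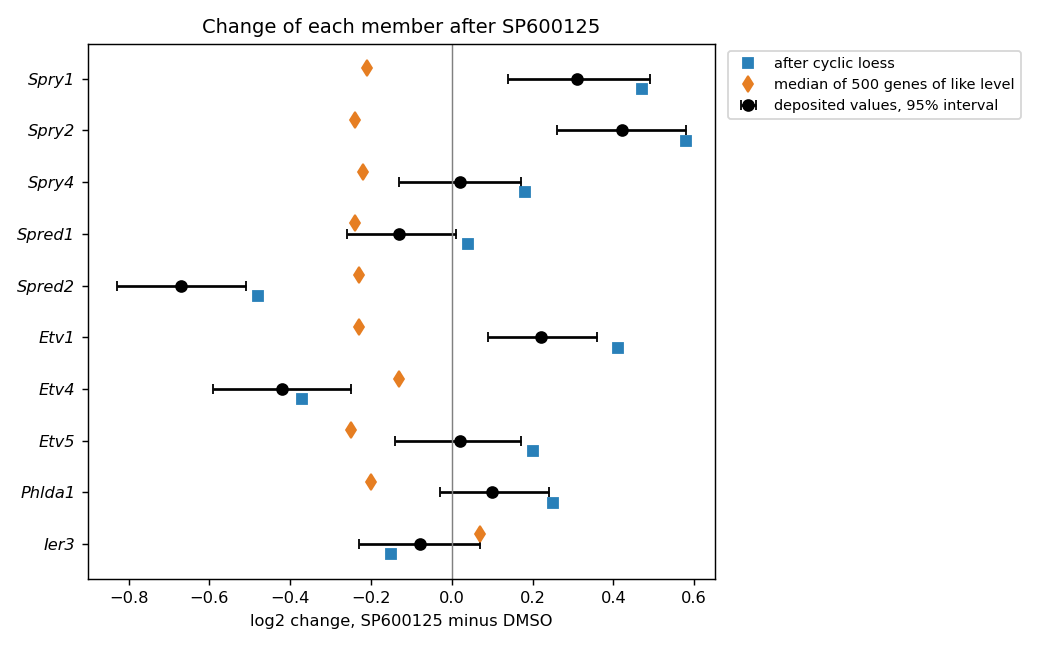
Log2 change of each member after SP600125 from the deposited values (black, with its 95% interval, n = 5 per group), after cyclic loess (blue squares), and the median change of the 500 genes nearest in mean level (orange diamonds). The diamonds lie between −0.25 and 0.07, and 7 members (Spry1, Spry2, Spry4, Etv1, Etv5, Phlda1 and Ier3) lie on the opposite side of 0 from theirs.

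The drug batches were compared next, since the labels record which one was used. The DMSO arrays carry the same batch numbers. A difference due to the drug batch therefore cannot be told apart from other differences between the 2 sets of samples. Effects in 1 batch alone were taken from the fit with the interaction of treatment and batch, in which all 10 arrays share 1 estimate of spread. In batch 1 (2 arrays per group), 1 member rose (4.20% of all genes did) and 1 fell (7.20%). In batch 2 (3 per group), 2 rose (10.1%) and 2 fell (25.1%). Spry1 was the rise and Spred2 the fall in batch 1, and Spry2 and Etv1 rose and Spred2 and Etv4 fell in batch 2. Spred2 stood at −0.71 (SE 0.12) in batch 1 and −0.64 (SE 0.10) in batch 2, a difference of 0.06 (SE 0.15). Spry2 changed by 0.31 (SE 0.11) and 0.49 (SE 0.09), and Etv4 by −0.28 (SE 0.12) and −0.51 (SE 0.10). Etv1 stood at 0.08 (SE 0.09) in batch 1 against 0.32 (SE 0.07) in batch 2. The reverse order was seen for Spry1, at 0.47 (SE 0.12) and 0.21 (SE 0.10), and for Phlda1, at 0.24 (SE 0.09) and 0.01 (SE 0.07). In the test of the interaction of treatment and batch with limma, 0 members and 0.00% of all genes passed, and the lowest adjusted p among the members was 0.563. At an unadjusted p under 0.05 there were 0 of the 10 members and 1852 of the 19938 genes. A list of 10 is too short for this to set the members apart from all genes. Of the members, 8 had 1 sign in both batches, and Spry4 and Etv5 did not.

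**Figure D3:**
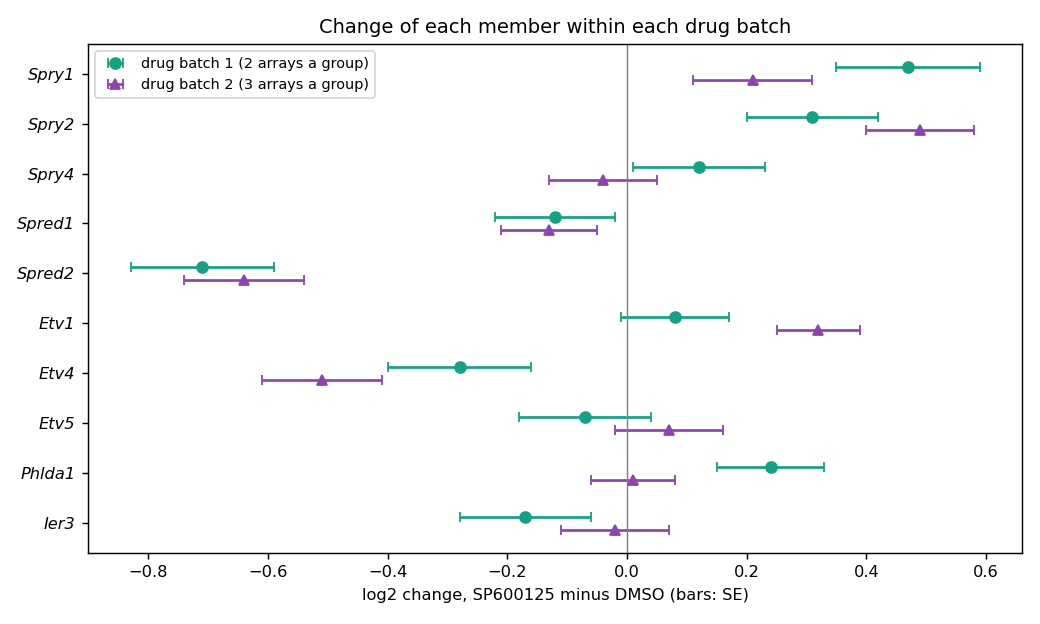
Log2 change of each member after SP600125 within drug batch 1 (circles, 2 arrays per group) and drug batch 2 (triangles, 3 per group), with SE bars from the interaction model. Spred2 lies near −0.7 in both batches, and Etv1, Etv4, Spry1 and Phlda1 show the widest gaps between batches, none of which passed the interaction test.

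Other genes of the pathway give the setting. Across 7 lists, 127 genes outside the members were measured. Of these, 11 rose (8.66%, against 17.0% of all genes) and 44 fell (34.6%, against 29.9%), with a median change of −0.10. Among genes of the level of Spry1 and of Etv1, 59.4% and 62.6% fell. At the lower levels of Etv4 and Ier3, 35.8% and 15.2% fell. The lists differ in level. On DMSO arrays the receptors and adaptors had a mean of 7.54 to 7.59, the other ETS factors of 6.23 to 6.32 and the ligands of 5.50 to 5.55. The count of falls in each list is to be read beside the share at its own level. After cyclic loess the 127 genes had 11 rises and 29 falls, after quantile normalization 6 and 32, and after median centring 5 and 70. The list medians kept a negative sign under these scalings, except for the ligands (0.06 as deposited, −0.01 after quantile normalization and −0.04 after median centring) and the other ETS factors (−0.08 as deposited and 0.01 after cyclic loess). Of 25 receptors and adaptors, 2 rose and 11 fell, against 3 and 5 after cyclic loess. The largest fall was that of Fgfr3, an FGF receptor that is also among the astrocyte markers (−0.74, SE 0.06), followed by the adaptors Shc3 (−0.67, SE 0.08) and Shc1 (−0.41, SE 0.08) and the GDNF receptor subunit Ret (−0.36, SE 0.12). Fgfr2 rose by 0.35 (SE 0.07) and the neuregulin receptor Erbb4 by 0.24 (SE 0.06), though Erbb4 did not pass after median centring (0.14, limma adjusted p = 0.0894).

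Of 28 FGF and EGF family ligands, 4 rose, 3 fell and 21 did not pass. The neuregulin Nrg3 (−0.41, SE 0.11) and the intracellular FGF homologue Fgf13 (−0.40, SE 0.11) fell, Btc (0.28, SE 0.08), Fgf21 (0.28, SE 0.07), Fgf17 (0.23, SE 0.08) and Nrg4 (0.21, SE 0.07) rose, and none of these 6 passed after cyclic loess. In the RAS to ERK cascade, 7 of 11 measured genes (of 19 listed) fell and 4 did not pass. The MEK genes Map2k1 (−0.54, SE 0.06) and Map2k2 (−0.40, SE 0.07), and the ERK-activated kinases Mknk2 (−0.54, SE 0.08) and Rps6ka3 (−0.49, SE 0.07), had the largest falls.

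Of 22 other negative regulators, 10 fell and 1 rose, against 8 and 5 after cyclic loess. The phosphatase Dusp4 (−0.62, SE 0.14), the RAS GTPase-activating protein Rasa3 (−0.59, SE 0.06) and the docking proteins Dok5 (−0.51, SE 0.09) and Dok4 (−0.44, SE 0.09) fell most. The gene that rose as deposited was Il17rd, which encodes Sef, an FGF receptor antagonist known to be co-expressed with Sprouty genes (0.30, SE 0.06, limma adjusted p = 0.00201). Dusp6, the ERK phosphatase of the same FGF-responsive group, had a difference of 0.04 (SE 0.06, limma adjusted p = 0.558) and passed at 0.21 after cyclic loess (limma adjusted p = 0.0250).

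Of 19 other transcripts induced by ERK, 8 fell and 1 rose, and 7 fell after cyclic loess. Ccnd1, cyclin D1, fell by 0.66 (SE 0.07), the neuropeptide precursor Vgf by 0.64 (SE 0.15), Ier2 by 0.48 (SE 0.07) and the ephrin receptor Epha2 by 0.47 (SE 0.08). The cytokine Lif rose by 0.33 (SE 0.12) but did not pass after any of the scalings above, and Egr1 had a difference of −0.08 (SE 0.06, limma adjusted p = 0.245) and passed at −0.19 after median centring (limma adjusted p = 0.0230). Of 17 other ETS factor genes, 2 rose and 3 fell. Etv2 rose by 0.41 (SE 0.07) and Erg by 0.30 (SE 0.09), both from dim probe sets (5.10 and 4.91 after DMSO), and Ets2 fell by 0.36 (SE 0.07), Elf1 by 0.27 (SE 0.07) and Etv3 by 0.25 (SE 0.05), of which Erg and Etv3 did not pass after cyclic loess. Capicua (Cic) fell by 0.36 (SE 0.08) and did not pass after cyclic loess (−0.18, limma adjusted p = 0.0589). Phlda2 rose by 0.18 (SE 0.07) and Phlda3 fell by 0.17 (SE 0.06), neither of which passed after cyclic loess. For reference, Jun fell by 0.56 (SE 0.06) and Nes, the nestin gene, by 1.34 (SE 0.06).

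**Figure D4:**
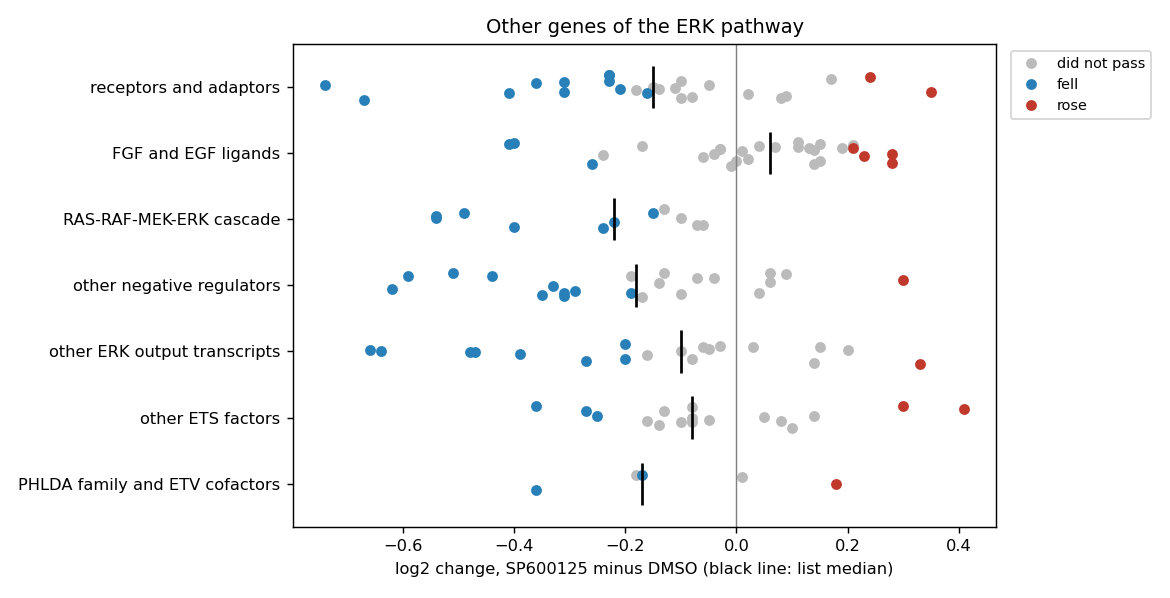
Log2 change after SP600125 of each measured gene in 7 lists of the ERK pathway outside the members, with genes that rose in red, genes that fell in blue, genes that did not pass in grey, and a black line at each list median (vertical scatter within a row has no meaning). Falls outnumber rises in 6 of the lists, and the ligands have 4 rises and 3 falls.

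Genes whose values ran most like those of a member were found by Pearson correlation over the 10 arrays after removal of batch means, among genes with a mean log2 value of 6 or more. All points share the treatment contrast, so these values describe a shared profile and carry no test. Nearest to Spry2 were Susd6 (r = 0.979), the GABA receptor subunit Gabrg1 (0.974) and Nop53 (0.966). Nearest to Spry1 were Sapcd1 (0.951), the homeobox gene Gbx2 (0.932) and the orphan nuclear receptor Nr4a1 (0.929). Nearest to Etv1 were Erbb4 (0.974), Esd (0.968) and Pla2g7 (0.966). Bbs5 (0.994), Pacc1 (0.991) and the tyrosine kinase gene Fer (0.991) ran with Spred2, and Mgrn1 (0.994), Slc22a17 (0.990) and Lhfpl3 (0.987) with Etv4.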

How the data were processed

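RNA from 10 samples was hybridised to Affymetrix whole-transcript arrays, 1 per sample, as the labels' protocols state. For 35556 probe sets the authors deposited log2 values (1.90 to 13.83, the scale judged from the numbers themselves). The submitters' processing notes name oligo 1.14.0. How background, scaling between arrays and summarization were handled is not given in the sources used. Probe sets were named from the platform annotation: 21789 carried 1 symbol, 1621 several and 12146 none. Of 13 probe sets of the members, the brightest per gene was used (3 genes had more than 1).

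The values were fitted as deposited with limma 3.58.1 in R 4.3.3 (lmFit, eBayes, two-sided), with treatment and drug batch as terms (7 residual degrees of freedom) or with their interaction. The fit ran over 19938 genes, with Benjamini-Hochberg adjustment over all of them and a threshold of 0.05, and was tested on simulated data. The simulation changed only a small share of the genes. It does not show how the fit behaves where 46.9% of genes pass, as here. Alternatives were other scalings, no batch term, a replicate block, a filter at a mean log2 of 5 and a variance trend. Others were the mean of a gene's probe sets, single batches and arrays left out. Effects in single batches came from the interaction fit, with the spread pooled over all 10 arrays.

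Named genes were the members, up to 4 of the largest changes per pathway list, Jun and Nes, and the 3 genes most like each member that passed. Spry3, Spred3, Il17rd, Dusp6, Egr1, Fgfr2, Erbb4, Fgf17, Nrg4, Lif and Etv3, and the markers given with single levels, were named after their values were seen. The members and the lists were chosen with earlier results of these data known. Motifs were searched in RefSeq windows of GRCm38.p6, and the choice of motifs followed the results. Members without an entry there are Spry4, Etv4 and Phlda1.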

Additional observations from a re-analysis of the deposited data

Results flagged for a closer look

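Among 20 sets of 5 arrays (each member in each group), 1 array stood far from the others. Spry1 on SP600125 replicate b was 7.62, and its gap to the next array was 0.749 of the range of the SP600125 group, above Dixon's 95% critical value for a set of that size. About 1 in 20 sets would be marked this way by chance. Without this array Spry1 still rose, by 0.23.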

How the results depend on the processing

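Spred2 kept its sign and its call under all 22 alternatives, and Spry1, Spry2 and Etv4 under 21 each. The number of members past the threshold was 5 in the primary fit and 2 in drug batch 1 alone, where fewer arrays enter each contrast. Spry2 (0.31), Etv1 (0.08) and Etv4 (−0.28) did not pass in batch 1 alone, and Spry1 (0.21) did not in batch 2 alone. Etv1 (0.12) did not pass after median centring. Members near 0 changed sign. Spred1 was 0.02 after quantile normalization and 0.04 after cyclic loess. Spry4 was −0.08 after median centring and −0.04 in batch 2 alone, and ran from −0.05 to 0.06 with arrays left out. Etv5 was −0.08 after median centring, −0.01 with the mean of its probe sets and −0.07 in batch 1 alone, and ran from −0.02 to 0.07 with arrays left out. Spred1 passed without SP600125 replicate c (−0.16). Spry1 ran from 0.21, without the b arrays of both groups, to 0.34. The cause of these moves was not tested. Centring on named genes and leaving out both b arrays were chosen after seeing the data, and neither changed a call of a member. Same-letter arrays did not deviate together (correlations of deviations from group means from −0.208 to 0.101). For deviations from group and batch means the correlations ran from −0.337 (replicates a and b) to 0.044 (replicate d). The letters were therefore not treated as pairs, and with a replicate block 5 members passed as before, with Spry2 at 0.42. All genes called numbered 9351 in the primary fit, 5419 after cyclic loess, 5991 after quantile normalization and 2273 in batch 1 alone. The interaction was called for 0 members under every alternative run. With 5 arrays per group, the 95% interval of Ier3, the dimmest member, ran from −0.23 to 0.07, and signal over background was not used here.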
